A study of Rattus norvegicus with 10 samples.

Results

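The transcripts described here are annotated transcripts of rat cerebral cortex whose level after transient occlusion of the middle cerebral artery was at most 50% of the level after sham surgery. They were chosen from the authors' mRNA table by 3 conditions: an Ensembl transcript identifier, a sham mean of at least 5 FPKM (sequenced fragments scaled by transcript length and by the library's total), and an MCAO/R mean of at most 50% of the sham mean. These conditions held for 186 transcripts, called members below, of 4030 annotated transcripts with a sham mean of at least 5 FPKM, of 26001 annotated transcripts, and of 395407 rows in the mRNA and lncRNA tables together. Because the difference between the groups chose the members, that difference is given as a description, with no test.

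The 5 MCAO/R libraries came from cortex after 2 h of occlusion and 24 h of reperfusion, a model of ischaemic stroke in which blood flow is restored. The 5 sham libraries came from cortex of sham-operated rats. All rats were male Sprague-Dawley rats of 8 to 9 weeks and 240 ± 20 g. Every library was made from total RNA with ribosomal RNA removed. Libraries carry the replicate numbers of their labels: those of MCAO/R are numbered 1 to 5, those of sham 6 to 10. The labels do not say whether the cortex was taken from the ischaemic core or its border, or that the libraries are from different animals, so the spread between libraries may be partly technical. No table used here pairs the transcript identifiers with gene symbols, so the members cannot be assigned to genes, pathways or cell types, and the tissue label could not be set against marker genes. Members are therefore numbered from 1 to 186 by the ratio of the MCAO/R mean to the sham mean, member 1 having the lowest ratio, and only the first 2 members whose groups do not overlap are given by identifier.

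As background, blockage of the middle cerebral artery deprives the cortex it supplies of oxygen and glucose. Neurons depend on a constant energy supply and are among the first cells to fail, while glia, vessel cells and arriving blood cells respond by switching on stress, repair and inflammatory genes. Transcripts made mainly in neurons are known to decline in infarcted cortex, through death of the cells, through loss of transcription in surviving cells, or both. An annotated transcript is 1 isoform of a gene. Programs that estimate isoform levels divide the reads of a locus among its isoforms, so an isoform's level can differ between libraries when the level of its gene does not.

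The median member stood at 37.8% of its sham mean after MCAO/R, with quartiles of 25.6% and 44.8%. In contrast, the median of all 4030 annotated transcripts at this level was 115.6% of the sham mean. Of the 186 members, 86 stood at 40% to 50% of the sham mean and 55 at 25% to 40%. A further 31 stood at 10% to 25%, and 14 at 10% or less. In these bulk samples fewer cells of a type and less RNA per cell cannot be told apart.

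Residual levels were seldom zero. The median MCAO/R mean over the members was 3.80 FPKM, against a median sham mean of 11.999 FPKM. An MCAO/R mean of at least 5 FPKM was left in 84 members, and one under 1 FPKM in 19. Only 7 members were under 1 FPKM in all 5 MCAO/R libraries, and member 1 alone was listed at 0 FPKM in all 5. At least 1 MCAO/R library was listed at 0 for 27 members, and at least 1 sham library for 15. MCAO/R replicate 5 held 23 of these zeros, where the other 4 MCAO/R libraries held 8 to 11 and sham libraries 3 to 10. The depth of the libraries is unknown, so no detection limit can be given for a value of 0.

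**Figure D1:**
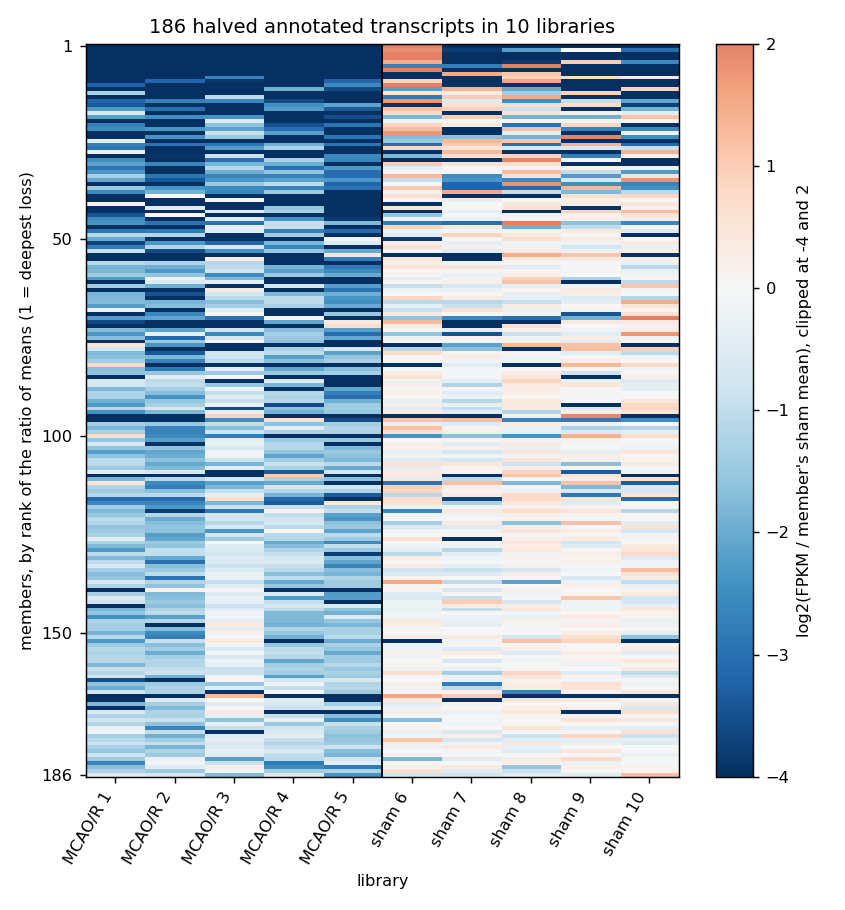
Levels of the 186 members (rows, deepest loss at the top) in the 10 libraries (columns), as log2 of FPKM over the member's own sham mean, with colours limited to the range from -4 to 2. Most of the lower rows are pale in sham libraries and blue in MCAO/R libraries, often palest in MCAO/R replicate 3, while many of the top rows are dark in some sham libraries as well and red in 1 or a few.

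Groups did not overlap for 54 of 186 members, that is, the highest MCAO/R library was under the lowest sham library. Of all annotated transcripts with a sham mean of at least 5 FPKM, 3.08% had groups that did not overlap in this direction. The members were chosen by this same difference, and nothing is read from the gap between these shares. Across sham libraries the 54 had a median coefficient of variation (CV) of 15.9%. It was 17.3% for all 4030 annotated transcripts and 62.6% for the 132 members whose groups overlapped. Of the 54, 33 had a sham CV under 20%, and member 2 had one of 150%. The split itself favours a low sham CV, since every sham library of the 54 must exceed every MCAO/R library. The 54 were also the more abundant members, with a median sham mean of 16.5 FPKM against 9.63 FPKM in the other 132.

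The most abundant member, member 171, shows this form. It stood at 172, 165, 306, 209 and 123 FPKM in MCAO/R replicates 1 to 5 and at 367, 385, 433, 433 and 383 FPKM in sham replicates 6 to 10. MCAO/R replicate 3 was its highest MCAO/R library and still below the lowest sham library. The means were 195 ± 69.3 and 400.0 ± 30.8 FPKM (SD, n = 5 each), so 48.7% of the sham level was left.

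Member 103, the third in abundance, stood at 75.3, 73.6, 141, 102 and 66.0 FPKM in MCAO/R and at 262, 261, 188, 224 and 199 FPKM in sham libraries. Again MCAO/R replicate 3 was the highest MCAO/R library, and 40.4% of the sham mean was left. Member 59, the fourth in abundance, departed from this order. It stood at 70.2, 62.7, 32.4, 68.4 and 46.6 FPKM in MCAO/R and at 202, 157, 228, 188 and 169 FPKM in sham libraries, so that MCAO/R replicate 3 was its lowest library. Of its sham mean 29.7% was left.

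Member 83 had the smallest spread between sham libraries of all members, a CV of 4.84%. Its sham libraries stood at 12.4, 12.7, 13.8, 13.6 and 12.7 FPKM, and its MCAO/R libraries at 3.99, 1.80, 10.2, 3.15 and 4.06 FPKM. Apart from MCAO/R replicate 3, its MCAO/R libraries lay far below the sham range, and the MCAO/R CV was 69.9%. Member 84 was the opposite case, with the smallest spread within MCAO/R. It stood at 28.0, 29.8, 31.5, 30.8 and 33.5 FPKM in MCAO/R (CV 6.62%) and at 105, 81.8, 105, 48.3 and 86.6 FPKM in sham libraries, of which sham replicate 9 was the lowest. Its MCAO/R level was thus nearly the same in every library, which was rare: an MCAO/R CV under 20% was found in 6 of 186 members.

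**Figure D2:**
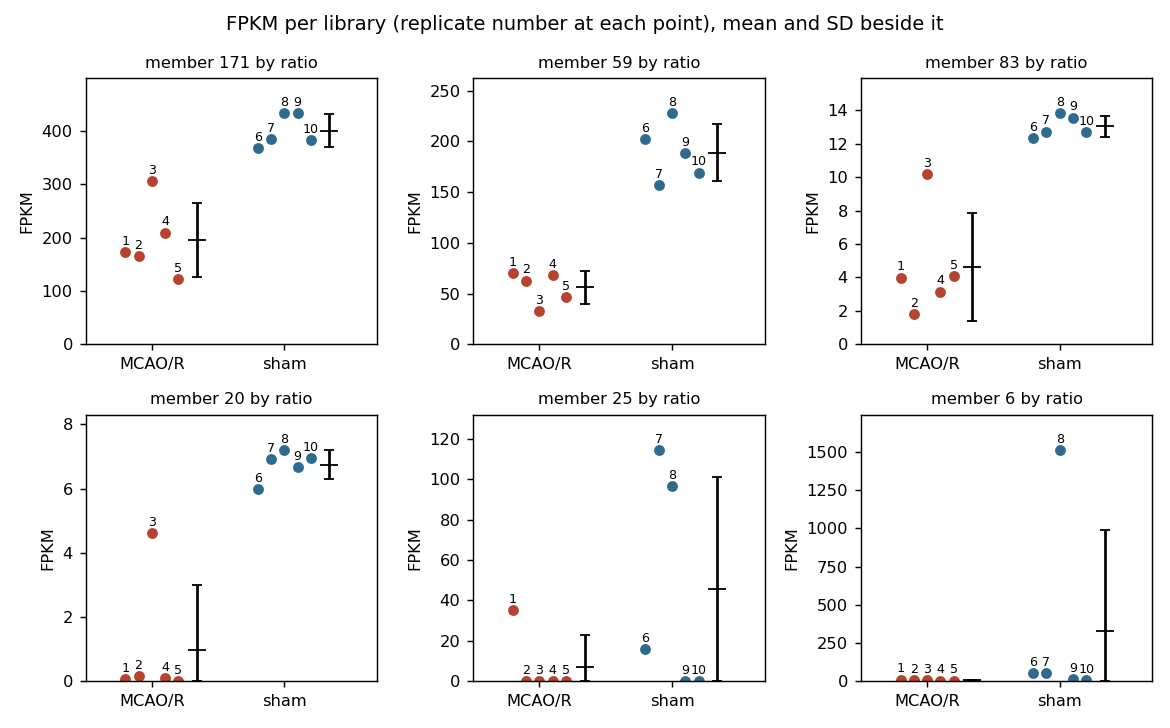
FPKM of 6 members in each MCAO/R (red) and sham (blue) library, with the replicate number at each point and the mean and SD beside each group (SD bars end at 0). Members 171, 59 and 83 differ between the groups in every library, member 20 is near 0 in 4 MCAO/R libraries but at 4.60 FPKM in replicate 3, member 25 is near 0 in libraries of both groups, and the sham mean of member 6 rests on 1516 FPKM in sham replicate 8.

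The MCAO/R libraries differed in how much of the members' level was left. The median member stood at 29.9%, 24.2%, 54.6%, 32.4% and 22.5% of its sham mean in MCAO/R replicates 1 to 5. Replicate 3 therefore held the highest level and replicate 5 the lowest. In sham replicates 6 to 10 the median member stood at 99.4%, 88.4%, 106.4%, 98.8% and 96.1%, so that the groups did not overlap. That gap between the groups follows from the choice of the members. Among the 54 members whose groups did not overlap the same order was seen, with 37.4%, 29.2%, 59.3%, 39.9% and 28.9% in MCAO/R replicates 1 to 5.

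MCAO/R replicate 3 was the highest MCAO/R library for 103 of 186 members, where replicates 1, 2, 4 and 5 were highest for 29, 14, 28 and 12. It was above 50% of the sham mean for 102 members, and for 59 of these it was the only such MCAO/R library. For 14 members it reached at least the sham mean. The lowest MCAO/R library was most often replicate 5, for 56 members, or replicate 2, for 52. How often each library was highest or lowest was not counted over the 4030 annotated transcripts, so this order cannot be called particular to the members. Where the highest MCAO/R library lay far from the others, by a criterion given below, it was replicate 3 for 25 of 51 members. The same held for 111 of 237 such annotated transcripts among the 4030. The general level of the MCAO/R libraries covered a narrower range. The median of the 4030 annotated transcripts lay between 111.2% and 118.0% of the sham mean in all 5 MCAO/R libraries. It too was highest in replicate 3, at 118.0%, but it was lowest in replicate 4, where the median of the members was lowest in replicate 5. Whether the 2 levels are linked was not tested.

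Single members show how far replicate 3 could stand from its group. Member 20 was at 0.0501, 0.139, 4.60, 0.0764 and 0 FPKM in MCAO/R and at 5.99, 6.92, 7.21, 6.67 and 6.94 FPKM in sham libraries. Its groups did not overlap, yet nearly all of its MCAO/R mean of 0.973 FPKM came from replicate 3. Member 40 was at 0.165, 0.128, 9.94, 0.0711 and 0.198 FPKM in MCAO/R and at 9.75, 7.33, 10.3, 11.4 and 9.50 FPKM in sham libraries. In replicate 3 it lay within the sham range, and in the other 4 MCAO/R libraries it was near 0. Member 32 was graded instead, at 1.66, 0.217, 5.89, 1.62 and 2.67 FPKM in MCAO/R against 9.73, 13.4, 11.9, 14.6 and 14.6 FPKM in sham libraries. With replicate 3 left out of the rule, 243 transcripts met it in place of 186. The median level left in the 186 members was then 33.0%, and their groups did not overlap for 87 in place of 54. Leaving out any library can only keep or raise this last number, which was 55 to 87 over the libraries. Leaving out the MCAO/R library that was highest for most members also lowers the level left. The share over all annotated transcripts was not computed without replicate 3.

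**Figure D3:**
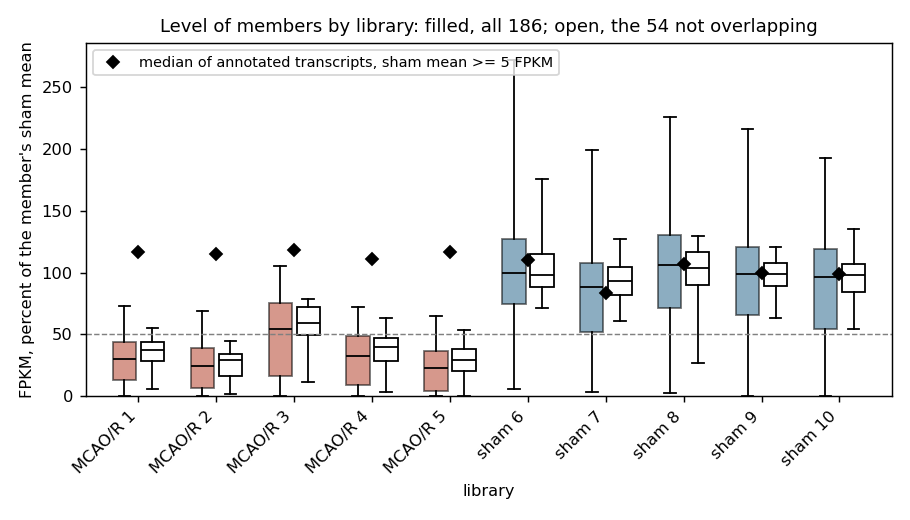
Level of the members in each library as a percentage of the member's sham mean (boxes, quartiles with the median; whiskers, the 5th to the 95th percentile), for all 186 members (filled) and for the 54 whose groups did not overlap (open), with the median of the 4030 annotated transcripts as diamonds. The MCAO/R medians of all members run from 22.5% in replicate 5 to 54.6% in replicate 3, while the diamonds of MCAO/R libraries lie between 111.2% and 118.0%.

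The deepest differences were of another kind, since they rested on high values in 1 or a few sham libraries. Of the 14 members at 10% of the sham mean or less, 12 drew over 50% of their sham sum from a single library, and their median sham CV was 143.5%. Among the 86 members at 40% to 50% this was so for 2, and the median sham CV was 29.0%. Over all members 32 of 186 (17.2%) had such a library, against 2.28% of the 4030 annotated transcripts. The library was sham replicate 6 for 11, 7 for 4, 8 for 7, 9 for 5 and 10 for 5 of them, so no sham library stood for most of these members. A high value in 1 sham library by itself raises the sham mean and lowers the ratio. The rule and the order by ratio therefore favour such members, and nothing is read from the gaps between these shares.

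Member 1 was listed at 0 FPKM in 9 libraries and at 25.3 FPKM in sham replicate 6. Its groups shared the value 0, and its sham mean of 5.05 FPKM was that of 1 library. Member 6, the second in abundance by its sham mean of 327 FPKM, was at 49.1, 49.5, 1516, 12.1 and 6.31 FPKM in sham replicates 6 to 10 and at 8.54, 5.34, 7.48, 2.65 and 2.13 FPKM in MCAO/R. Sham replicate 8 held 92.8% of its sham sum. Sham replicate 10 lay inside the MCAO/R range, so that its ratio of 1.60% describes sham replicate 8 more than the group.

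The 2 members with the lowest ratio among those whose groups did not overlap had such a library too. ENSRNOT00000013629, member 2, was at 36.5, 0.727, 2.21, 9.92 and 1.22 FPKM in sham replicates 6 to 10. In MCAO/R it was listed at 0 in replicates 1, 4 and 5 and at 0.0426 FPKM in replicate 2, with less still in replicate 3. Each MCAO/R library lay under each sham library, but sham replicate 6 held 72.2% of the sham sum and the sham libraries covered a wide range. Its MCAO/R mean was 0.0094 ± 0.0186 FPKM and its sham mean 10.1 ± 15.2 FPKM (SD, n = 5 each). The level left was 0.093% of the sham mean, 0.267% without sham replicate 6 and 0.011% without MCAO/R replicate 2. ENSRNOT00000067841, member 5, was at 15.2, 0.330, 0.396, 11.0 and 0.944 FPKM in sham libraries and at 0.0221, 0.0754, 0.0101, 0.0350 and 0.0272 FPKM in MCAO/R. It was high in sham replicates 6 and 9 and under 1 FPKM in the other 3. Its means were 0.0340 ± 0.0248 and 5.57 ± 7.03 FPKM, and without sham replicate 6 the level left was 1.07% in place of 0.609% of the sham mean.

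When the highest sham library was left out, 4 of the 32 members with over 50% of the sham sum in 1 library still met the rule. In 5 of the 32 the other 4 sham libraries averaged below the MCAO/R mean. For 38 of 186 members the sham median was under 5 FPKM, and for 8 it was below the MCAO/R median. With medians in place of means for both groups, 208 transcripts met the rule, among them 124 of the 186 members; the other 62 members did not.

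**Figure D4:**
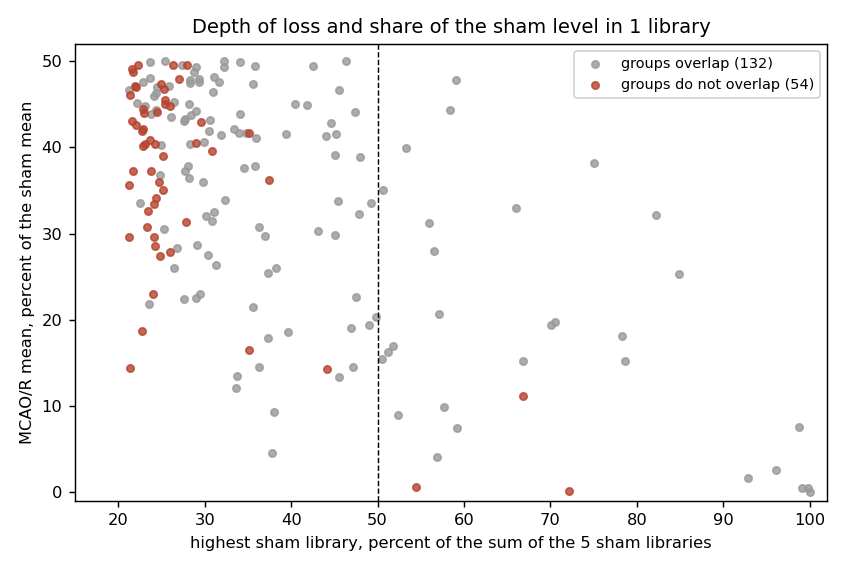
MCAO/R mean of each member as a percentage of its sham mean, against the share of the sum of the 5 sham libraries that the highest of them held (20% would be equal levels; dashed line, 50%). The 54 members whose groups did not overlap (red) lie mostly on the left at 25% to 50% of the sham mean, and 12 of the 14 members at 10% or less lie right of the line.

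Another form was a level that was near 0 in some libraries and well above it in others of the same group. In 34 members at least 1 MCAO/R library was under 0.1 FPKM while another held at least 50% of the sham mean. In 26 members at least 1 sham library was under 0.1 FPKM while another held at least 50% of the sham mean. Either was true of 43 members (23.1%), against 5.01% of the 4030 annotated transcripts. This form was defined after the values were seen. MCAO/R libraries near 0 lower the MCAO/R mean, and a sham library far above the others raises the sham mean. The rule thus favours such members, and nothing is read from the gap between these shares.

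Member 68, the fifth in abundance, was at 130, 0.314, 108, 0.0190 and 0.386 FPKM in MCAO/R and at 80.8, 233, 123, 163 and 157 FPKM in sham libraries. In MCAO/R replicates 1 and 3 it lay within the sham range, and in replicates 2, 4 and 5 it was nearly missing, so that its mean of 47.7 FPKM matches no library. Member 25 was at 35.1 FPKM in MCAO/R replicate 1 and at 0 in the other 4, and at 15.7, 115, 96.6, 0 and 0 FPKM in sham libraries. Both of its groups therefore held libraries at 0 and libraries well above it. Member 41 was at 11.95 FPKM in MCAO/R replicate 1 and 0 in the other 4, and at 0.0422, 10.7, 14.7, 13.3 and 14.6 FPKM in sham libraries. A library of each group thus stood where the rest of the other group stood.

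Spread within MCAO/R was larger than within sham for most members. The CV was larger in MCAO/R for 127 of 186 members, and for 44 of the 54 whose groups did not overlap. Over members the median CV was 62.1% in MCAO/R against 47.6% in sham, while over the 4030 annotated transcripts it was 19.2% and 17.3%. A CV is higher where a mean is low for the same absolute spread, and the rule made the MCAO/R mean the lower one. All 5 MCAO/R libraries were at or below 50% of the sham mean in 41 members, 4 of them in 91 and 3 or fewer in 54.

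Members of different abundance were counted against all annotated transcripts of the same level. They were 83 of 1424 annotated transcripts (5.83%) at a sham mean of 5 to 10 FPKM, 47 of 1192 (3.94%) at 10 to 20, 39 of 888 (4.39%) at 20 to 50, and 17 of 526 (3.23%) at 50 FPKM or more. Groups did not overlap for 16.9%, 44.7%, 28.2% and 47.1% of the members in these ranges, and for 1.40%, 2.85%, 4.28% and 6.08% of all annotated transcripts in them. The members at 5 to 10 FPKM had a median sham CV of 63.7%, against 22.8% for all annotated transcripts of that level.

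Neither threshold of the rule fell in a gap. The 3 members just inside the limit on the ratio stood at 49.97%, 49.98% and 49.998% of the sham mean, and the 3 transcripts just outside at 50.1%, 50.4% and 50.5%. All 3 outside, and none of the 3 inside, had groups that did not overlap. Ratios of 0.45 to 0.5 were held by 45 members and ratios of 0.5 to 0.55 by 53 other transcripts. The sham means just inside the minimum were 5.02, 5.04 and 5.05 FPKM, and just outside 4.93, 4.93 and 4.98 FPKM. Of the transcripts that met the rule on the ratio, 31 had a sham mean of 5 to 6 FPKM and 43 one of 4 to 5 FPKM.

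To read the members' difference in libraries that had not chosen them, the rule was applied to 4 MCAO/R and 4 sham libraries, in each of the 25 ways of leaving out 1 of each. It then chose 172 to 271 transcripts (median 195), of which 133 to 170 were among the 186. In the 8 libraries used, the median chosen transcript stood at 35.0% to 39.0% of sham (median of the ways 37.0%). In the pair left out, the MCAO/R library stood at 36.5% to 88.9% of the sham library (median 51.3%). These medians leave out the 6 to 18 chosen transcripts listed at 0 in the sham library read. With these placed above every ratio, the medians were 38.1% to 92.3% (median 55.2%). For all annotated transcripts with a sham mean of at least 5 FPKM, the pair left out gave 102.7% to 143.3% (median 117.8%). The median level of the chosen transcripts was therefore also below that of all annotated transcripts in libraries outside the choice. The level left was higher there than in the libraries that made the choice in 23 of the 25 ways, and in all 25 with the transcripts at 0 placed above every ratio. In the pair left out the level is a ratio of single libraries, and in the 8 used a ratio of means of 4 libraries. The gap between them therefore does not measure the effect of the choice alone. The 25 ways share libraries, so no p-value is given.

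In the pair left out, 56.1% to 76.5% of the chosen transcripts were lower in the MCAO/R library (median 70.1%), against 17.4% to 46.8% of all annotated transcripts at this level (median 35.0%). A level of at most 50% of the sham library, where that was above 0, was found for 15.4% to 59.8% of the chosen (median 44.95%), against 4.60% to 11.2% of all (median 8.29%). For the chosen transcripts, the median level read was 75.5% to 88.9% when replicate 3 was the one left out, and 36.5% to 58.6% with any other MCAO/R library. Chosen transcripts without a sham library over 50% of the sum (126 to 211) gave a median of 51.0%, and those with one (40 to 65) a median of 67.9%, with a range from 17.7% to 117.2%.

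**Figure D5:**
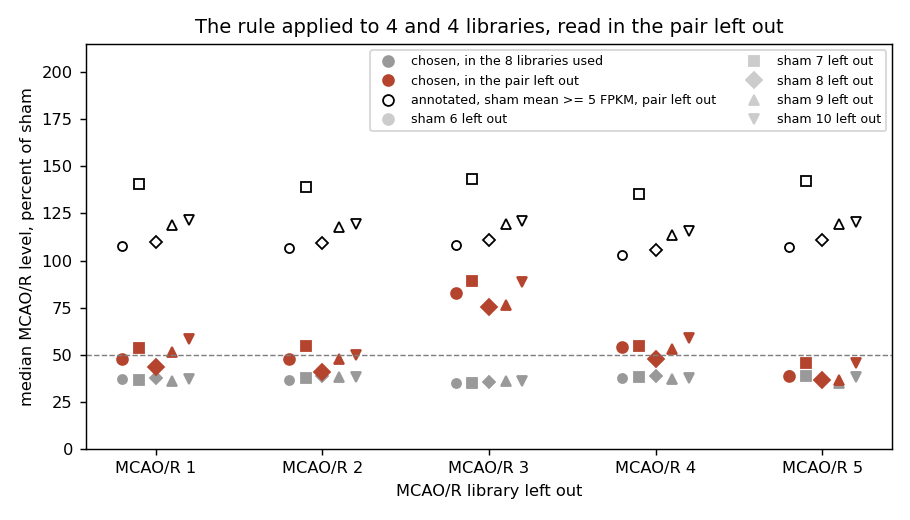
Median MCAO/R level as a percentage of sham for transcripts chosen by the rule in 4 and 4 libraries, in the 8 libraries used (grey) and in the pair left out (red), with all annotated transcripts of that level in the same pair (open), by the MCAO/R library left out and, by symbol, the sham library left out. Grey points lie at 35.0% to 39.0%, red points at 36.5% to 58.6% except for MCAO/R replicate 3 at 75.5% to 88.9%, and open points above 100%.

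The number of members depended on how the libraries were scaled to each other. FPKM of annotated transcripts summed to 180179 to 195539 in MCAO/R and to 128381 to 172480 in sham libraries, and no source used here says which fragments make up the library total. Making the annotated sums equal lowers MCAO/R against sham values by a factor of 1.19, and then 317 transcripts met the rule. The number was 246 with equal sums over both tables, 264 with equal sums without the 20 highest features, 331 with median-of-ratios factors and 371 with quantile normalization. All 186 members met the rule under each of these 5 scalings, and 60 to 185 transcripts entered. The 186 were thus 75.6% of the set with equal sums over both tables and 50.1% of the set after quantile normalization. As deposited, the values gave the smallest set, and the median level left in the 186 members was 30.1% to 34.4% under the other scalings. All 5 scalings lowered MCAO/R against sham values. Under them the median annotated transcript with a sham mean of at least 5 FPKM stood at 93.3% to 105.3% of sham, against 115.6% as deposited. That direction by itself favours keeping every member and a lower level left, so neither shows that the set is independent of scaling.

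The opposite rule, an MCAO/R mean of at least 5 FPKM and a sham mean of at most 50% of it, was met by 755 annotated transcripts as deposited, against 186 members. Under the 5 scalings it was met by 440 to 588 and the rule for members by 246 to 371. Halved transcripts were fewer than doubled ones under every scaling tried, from 0.246 for each doubled transcript as deposited to 0.843 after quantile normalization. As deposited, 51 of the 755 doubled transcripts (6.75%) had over 50% of the MCAO/R sum in 1 library, where 17.2% of the members had over 50% of the sham sum in 1.

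For the members and the 4030 annotated transcripts as chosen, scaling a whole library leaves the ranks within it unchanged. Among the 4030 annotated transcripts of each library, the median member ranked at percentiles 6.54, 5.68, 10.5, 5.91 and 5.02 in MCAO/R replicates 1 to 5 and at percentiles 42.1 to 47.2 in sham libraries. MCAO/R replicate 3 was again the highest of its group. Of the summed FPKM of annotated transcripts the members made up 0.828% ± 0.262 in MCAO/R, against 2.93% ± 0.601 in sham (SD, n = 5 each). Without the 32 members with over 50% of the sham sum in 1 library these shares were 0.769% ± 0.257 and 2.38% ± 0.213. The gaps between the groups in rank and in share follow from the choice of the members, made on the values as deposited.

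Of the 186 members, 81 were called lower by limma at an adjusted p under 0.05 over all 25038 features tested, and 121 had an unadjusted p under 0.05. The share called in either direction was 19.5% of all features, and the share called lower was 2.84% of the 10105 annotated transcripts tested. Among these 10105, 3438 had an unadjusted p under 0.05, in either direction. The members were chosen by the contrast that was tested, so nothing is read from these calls except how they fell among the members. Calls went to 49 of the 54 members whose groups did not overlap and to 32 of the other 132. Of the 32 members with over 50% of the sham sum in 1 library, 1 was called. So was 1 of the 14 members at 10% of the sham mean or less. The number called was 58 to 86 with any 1 library left out, and 34 when features of low level were tested too.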

How the data were processed

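Total RNA of 10 cortex libraries (5 MCAO/R, 5 sham) was sequenced after removal of ribosomal RNA, from 1.5 µg of RNA per library, per the labels' protocols. The authors deposited FPKM per transcript in an mRNA and an lncRNA table. The submitters' processing notes name the build Rnor_5.0. The tools for alignment, assembly and quantification are not given in the sources, and FPKM carries no read totals, so depth is unknown. Of the identifiers 0 matched the rat gene table used here (RefSeq, GRCr8), so the gene lists prepared for named genes could not be applied and no sequence is printed.

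Members were chosen by the rule on group means. Isoforms of an assembled locus were summed. Features whose mean over all libraries reached 0.5 FPKM were fitted on log2(FPKM + 1) with limma 3.58.1 in R 4.3.3, with an intensity trend, no term besides group, two-sided tests and Benjamini-Hochberg adjustment. Summaries used Python 3.11.15 and pandas 2.3.3. The code for the rule and for the fit was checked on simulated data. For the rule, the simulated libraries varied less than those of most members, and no changed transcript lay near a threshold. That check therefore does not show how well the rule works on members like these. Scaling factors had a geometric mean of 1 over libraries, and quantile normalization was applied to annotated transcripts only. Named genes were to be the members with the lowest ratio whose groups do not overlap, the most abundant members and those beside a threshold, at most 2 of them by identifier where no table gives symbols. The other members given singly were chosen after their values were seen. The members and lists were chosen with earlier results of these data known.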

Additional observations from a re-analysis of the deposited data

Results flagged for a closer look

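Among 42 groups of 5 values given singly, a library lay far from the other 4 in 13. Several of these members were picked because of such a library. Chance meets the criterion in about 1 of 20 groups if values are normally distributed, which FPKM need not be. Among the 4030 annotated transcripts 8.71% of sham groups and 9.16% of MCAO/R groups met it. In sham libraries, member 1 stood at 25.26 FPKM in sham replicate 6 with the others at 0, member 2 at 36.5 FPKM in sham replicate 6 with the next at 9.92, member 6 at 1516 FPKM in sham replicate 8 with the next at 49.5, and member 41 at 0.04224 FPKM in sham replicate 6 with the next at 10.7. In MCAO/R libraries, replicate 3 stood apart for member 20 at 4.601 FPKM (next 0.139), member 40 at 9.935 FPKM (next 0.198) and member 83 at 10.21 FPKM (next 4.06). Replicate 1 stood apart for member 25 at 35.07 FPKM and member 41 at 11.95 FPKM, with the next at 0 in both, and replicate 2 for member 2 at 0.04256 FPKM.

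Of the values per library, the median percentile of the members was highest in MCAO/R replicate 3, at 10.47 (next 6.54), and in sham replicate 8, at 47.2 with the next at 43.3. The number of members listed at 0 was 23 in MCAO/R replicate 5 (next 11). Over all members, a library lay that far from its group in 31 of 186 sham groups (16.7%) and 53 of 186 MCAO/R groups (28.5%), against 8.71% and 9.16% of the 4030 annotated transcripts. In 51 of the 53 MCAO/R groups that library was the highest, and in 25 of these it was replicate 3. Among the 4030 annotated transcripts it was replicate 3 in 111 of the 237 MCAO/R groups whose highest library stood apart. The members were chosen by these same values, so nothing is read from the gaps between members and annotated transcripts.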

How the results depend on the processing

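The number of members, 186, became 317 with equal sums of annotated transcripts, 331 with median-of-ratios factors, 371 with quantile normalization, 363 with a sham minimum of 2 FPKM, 103 with one of 10 FPKM and 2844 with none. It was 177 to 243 with any 1 library left out. The opposite rule gave 755 transcripts, and 477, 471 and 440 under the first 3 of these scalings (700 to 840 with 1 library left out). Without a filter on low values limma called 34 members and 780 annotated transcripts in place of 81 and 2089; more features were then tested. With 1 library left out these counts were 58 to 86 and 1509 to 2307. The number of members whose groups did not overlap was then 55 to 87 in place of 54, the highest without MCAO/R replicate 3. Leaving out a library can only keep or raise that number. A lower sham minimum can only add members, and a higher one can only remove them. The 3 scalings lowered MCAO/R against sham values, which by itself favours more members and fewer transcripts under the opposite rule. The cause of the other shifts was not tested. The median level left in members ran from 30.1% to 40.1% over all settings, and the median read in pairs left out from 44.5% to 55.2%. Without the 32 members with over 50% of the sham sum in 1 library, 154 members remained. Requiring a level above 0 in all 10 libraries left 157. Both settings were chosen after seeing the data. Alternatives on overlap and on pairs left out were also added after seeing the data. No paired analysis was possible because the groups share no replicate number.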
